A study of Mus musculus with 6 samples.

Results

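The genes described here are 10 readouts of canonical Wnt signaling in ribosome-associated RNA of D2 neurons from the medial prefrontal cortex (mPFC). They are 3 TCF/LEF factors (Lef1, Tcf7l1 and Tcf7l2), 4 feedback regulators (Axin2, Nkd1, Znrf3 and Rnf43) and 3 cell cycle and growth targets (Ccnd1, Ccnd2 and Myc). They were taken by gene symbol, without a filter on their values but with earlier results of these data known. They make up 10 of the 47729 genes in the deposited table. The table lists 75 transcripts for them, of which 42 were above 0 in at least 1 library and 33 were at 0 in all.

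RNAseq was performed on 6 libraries from adult male D2Cre/LSL-Flag-Cas9/RiboTag mice on a C57BL/6 background. The 3 Ctrl libraries came from mice injected in the mPFC with AAV GFP, and the 3 Gsk3sKO in mPFC D2 libraries (Gsk3sKO) from mice given AAV Gsk3 sgRNA/GFP, and tissue was taken 3 weeks later in both groups. All of these mice, controls included, carry the D2Cre bacterial artificial chromosome transgene, which switches on Flag-Cas9 and a hemagglutinin-tagged Rpl22 ribosomal subunit. RiboTag immunoprecipitation pulls down tagged ribosomes with their bound RNA from all Cre-positive cells of the dissected tissue, whether or not the virus reached them. The labels do not say whether a library is 1 mouse or a pool, so the p-values below measure only the spread between libraries, which may be technical. In such bulk RNA, fewer cells with a transcript and less of it per cell cannot be told apart.

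In canonical Wnt signaling, GSK3 kinases phosphorylate β-catenin in a destruction complex built on Axin and APC, and the phosphorylated protein is degraded. When a Wnt ligand engages its Frizzled and LRP receptors, β-catenin escapes, enters the nucleus and binds TCF/LEF factors, which then switch from repression to activation of their target genes. Several targets encode brakes on the same pathway, and Axin2 is the one most often used as its reporter. The kinase has a paralog, GSK3α, which can act in the same complex. The comparison of Ctrl with Gsk3sKO asks whether the RNA of these effectors and targets differed where Gsk3b was targeted.

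The targeted gene itself was measured first. Gsk3b was at 35.6, 53.8 and 56.5 FPKM in Ctrl replicates 1 to 3 and at 36.9, 37.0 and 33.6 in Gsk3sKO (FPKM is the number of fragments scaled by transcript length and by library size, here summed over the transcripts of a gene). Ctrl replicate 1 lay among the Gsk3sKO libraries, and the difference was −0.40 ± 0.19 (log2, SE) with an adjusted limma p of 0.773. An FPKM of the whole gene does not measure cutting by Cas9. For the protein, the authors reported by immunostaining of D2Cre/LSL-Flag-Cas9 mice that most Flag-Cas9 cells of the mPFC lacked GSK3β after the sgRNA virus. Drd2, the receptor gene that defines the labelled cells, was at 1.58, 6.02 and 14.1 FPKM in Ctrl and 8.32, 5.96 and 7.28 in Gsk3sKO, so it was present in all libraries and lowest in Ctrl replicate 1. That library was also the lowest for Lef1, and member values without it are given where they moved by more than 1.5 times. From the spacing of low values the depth was about 28800000 to 47100000 reads per library, an estimate in which a factor of 2 could not be told apart. Summed markers of other cells were above 0 in every library, but the oligodendrocyte marker Mog was at 0 in Gsk3sKO replicates 2 and 3. The sum of 7 oligodendrocyte markers ranged from 124 to 188 FPKM in Ctrl and 132 to 169 in Gsk3sKO, with Cnp, Mag, Cldn11 and Mog lower at an unadjusted limma p under 0.05, which was reached by 6.56% of all gene totals in either direction. The microglial marker C1qa and the excitatory neuron marker Tbr1 were also lower at this threshold, each as 1 of 5 tested markers of its list. Estimates lay below 0 for 4 of the 5 in microglia and above 0 for P2ry12 (0.72). In excitatory neurons 3 of the 5 lay below 0, and Neurod6 (0.375) and Camk2a (0.12) above it. The microglial sum ranged from 14.2 to 25.3 FPKM in Ctrl and 12.4 to 15.4 in Gsk3sKO. That of excitatory neurons ranged from 881 to 999 in Ctrl and 840 to 1050 in Gsk3sKO. The sum of 6 astrocyte markers ranged from 82.0 to 104 FPKM in Ctrl and 82.4 to 102 in Gsk3sKO. None of the markers was at 0 in every library, and the part of these cells in the values below was not tested.

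None of the 10 genes passed the test. Gene totals with a mean of at least 1 FPKM over the 6 libraries were compared with limma on log2(FPKM + 1), a scale that understates the change of low genes. Of the 10 genes, 7 could be tested and 0 had an unadjusted p under 0.05, against 6.56% of the 12874 gene totals tested (844 genes, 175 higher and 669 lower in Gsk3sKO). After Benjamini-Hochberg adjustment 0.0466% of all gene totals passed (6 genes), and the smallest adjusted p among the members was 0.767, for Myc. The estimates of Axin2, Nkd1 and Myc lay above 0 and those of Ccnd2, Ccnd1, Lef1 and Znrf3 below it. The median of the 7 was −0.07, beside −0.06 over all gene totals, of which 58.9% lay below 0. At the level of transcripts, 9 were tested and 0 passed, against 5.56% of the 21584 transcripts tested. The smallest adjusted p of these 9 was 0.842. When no filter on low values was applied, 42 member transcripts could be tested and again 0 passed, with a smallest unadjusted limma p of 0.0574.

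**Figure D1:**
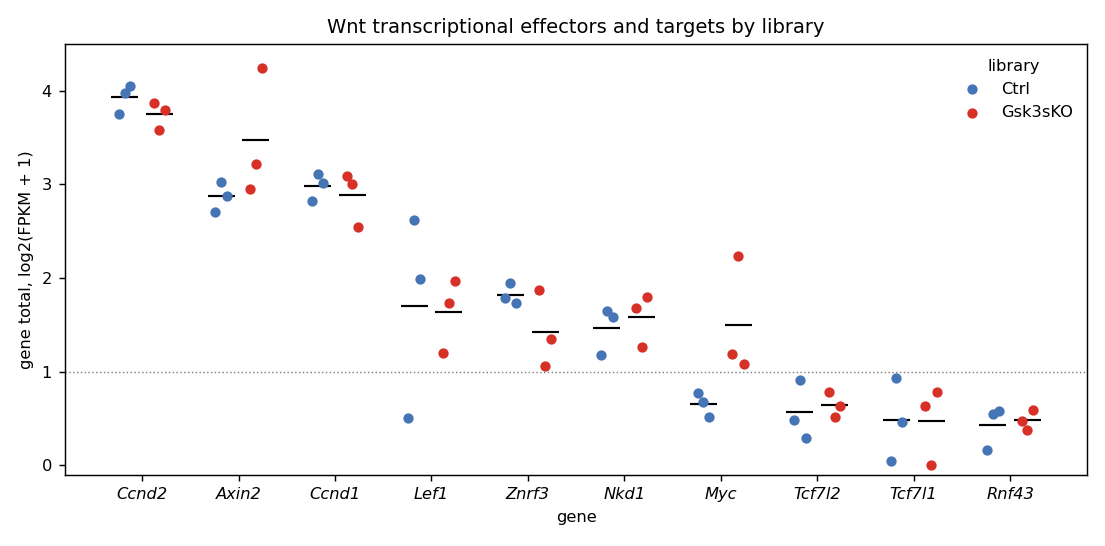
Gene totals of the 10 genes as log2(FPKM + 1) in each library, with 1 point per library (blue, Ctrl; red, Gsk3sKO), a black bar at the group mean and a dotted line at 1 FPKM. Ccnd2 lies highest, Tcf7l2, Tcf7l1 and Rnf43 lie under the dotted line in every library, and the groups are apart for Myc only.

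The levels of the 10 genes were spread over a wide range. In Ctrl, Ccnd2 was the most abundant at 14.3 ± 1.61 FPKM (SD, n = 3), followed by Ccnd1 at 6.95 ± 0.802, Axin2 at 6.36 ± 0.818, Lef1 at 2.84 ± 2.36, Znrf3 at 2.54 ± 0.285 and Nkd1 at 1.80 ± 0.469. Myc at 0.579 ± 0.136, Tcf7l2 at 0.504 ± 0.340, Tcf7l1 at 0.443 ± 0.444 and Rnf43 at 0.361 ± 0.209 stayed below 1 FPKM. The Ctrl libraries of neighbors in this order did not overlap between Ccnd2 and Ccnd1, Axin2 and Lef1, Znrf3 and Nkd1, or Nkd1 and Myc, and overlapped for the other neighbors. Among the 24947 genes above 0, the Ctrl mean of Ccnd2 stood at percentile 81.5, those of Ccnd1 and Axin2 at 70.3 and 69.0, and those of the 4 lowest genes between 37.0 and 42.0. Axin2 was thus present at a moderate level, whereas Tcf7l1 and Tcf7l2, 2 of the 3 TCF/LEF factors, stayed under 1 FPKM in every library.

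The TCF/LEF factors bind β-catenin at their amino terminus and DNA through an HMG box. Lef1 encodes the member known mainly as an activator, and was at 0.421, 5.13 and 2.97 FPKM in Ctrl replicates 1 to 3 and at 1.29, 2.32 and 2.93 in Gsk3sKO. The Ctrl libraries held both the lowest and the highest value, and the Gsk3sKO libraries lay between them. Its difference was −0.07 ± 0.52 (log2, SE), with a 95% interval from −1.27 to 1.13 and an adjusted limma p of 0.989. Without Ctrl replicate 1 the estimate was −0.67 and without Ctrl replicate 2 it was 0.39, neither past the test, so its direction rested on single libraries. The summed markers of endothelial cells, inhibitory neurons and oligodendrocytes were also lowest in Ctrl replicate 1 and highest in Ctrl replicate 2. Those of 7 endothelial markers were at 13.9, 50.9 and 24.1 FPKM in Ctrl and 20.1, 20.6 and 43.5 in Gsk3sKO, and those of 3 inhibitory neuron markers at 168, 342 and 246 in Ctrl and 246, 256 and 278 in Gsk3sKO. The oligodendrocyte sum was 124, 188 and 187 in Ctrl and 169, 132 and 166 in Gsk3sKO, where its order was unlike that of Lef1. The lists above were named for their order in Ctrl, and the other marker sums had other orders there. In Ctrl replicates 1 to 3, excitatory neuron markers summed to 881, 930 and 999 FPKM and astrocyte markers to 101, 104 and 82.0. The sums were 25.3, 14.2 and 15.9 for microglia, 11.0, 14.6 and 7.92 for oligodendrocyte precursors, and 10.1, 12.2 and 13.1 for thalamic neurons. No endothelial or inhibitory neuron marker passed the test (0 of 7 and 0 of 3), and the part of these cells in the Lef1 values was not tested.

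Tcf7l2, a factor that is prominent in thalamic neurons, was at 0.404, 0.883 and 0.226 FPKM in Ctrl and 0.718, 0.428 and 0.556 in Gsk3sKO. Tcf7l1, best known as a repressor, was at 0.0357, 0.916 and 0.377 in Ctrl and 0.555, 0 and 0.718 in Gsk3sKO. The groups of both overlapped, both were under the filter, and without it their differences were 0.08 and −0.01 and did not pass. Most of the Tcf7l2 signal fell on ENSMUST00000111657, which encodes 598 codons. Of its 22 listed transcripts 5 were above 0, as were 3 of the 5 of Tcf7l1.

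Transcripts of Lef1 were divided differently in the libraries. ENSMUST00000029611, which encodes 397 codons from the upstream start (chr3:131110471-131224356, plus strand, GRCm38), was at 0.266, 1.28 and 1.32 FPKM in Ctrl and 1.18, 2.30 and 2.22 in Gsk3sKO. The lowest Gsk3sKO value lay below 2 of the Ctrl values, and the difference of 0.60 ± 0.44 did not pass (limma, adjusted p = 0.890). It was 0.31 without Ctrl replicate 1, and the transcript passed the filter only through Gsk3sKO. As a share of the gene total this transcript made up 63.1%, 24.8% and 44.2% in Ctrl and 91.2%, 99.1% and 75.8% in Gsk3sKO. Every Gsk3sKO share lay above every Ctrl share (exact permutation p = 0.1, the smallest 3 against 3 libraries can give), as for 5.02% of the 17395 transcript shares compared. Part of the rest was held by transcripts that start downstream, which summed to 0.155, 2.46 and 1.64 FPKM in Ctrl and 0.113, 0.0205 and 0.709 in Gsk3sKO. Among them was the retained-intron transcript ENSMUST00000136147, which begins 2326 bases past the upstream start and was at 0, 1.33 and 0.887 FPKM in Ctrl and 0, 0.0205 and 0.501 in Gsk3sKO. In the library with the lowest total, Ctrl replicate 1, the main transcript rested on about 42 reads. In Ctrl replicate 2 another transcript from the upstream start, ENSMUST00000066849, was at 1.40 FPKM and held 27.3% of the total, more than the main one, and it was at 0 to 0.0178 FPKM in the other libraries. Because the division of reads between overlapping transcripts is estimated, a higher share of 1 transcript comes with a lower share of another.

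Promoter windows from RefSeq (GRCm38.p6), each with 250 bases before and 50 bases from a start on, were found for 6 of the 10 genes (Lef1, Tcf7l1, Tcf7l2, Nkd1, Rnf43 and Axin2) and 11 starts. They were searched on both strands for CTTTG, the core of the sequence that TCF/LEF factors recognize. Reading the other strand, the same core is spelled CAAAG. It was found in 7 of the 11 windows and in 53.9% of all 32851 windows of this length. The 11 windows are not independent. Every window of Lef1 held the core, and the upstream windows chr3:131110047-131110346 and chr3:131110073-131110372 overlap and share the same 2 cores. A longer form that contains the core, CTTTGAT, was found on either strand in 3.73% of all windows. The other longer form searched, CTTTGTT, was found in 5.85% of all windows, and at least 1 of both forms in 9.33%. Of the 11 windows only 1 held a longer form. In the runs that follow the core is in capitals and all else in lower case. An upstream and a downstream window of Lef1 are shown because transcripts that begin near them were measured. The other upstream window of Lef1 and the one at chr3:131156044-131156343, which held 3 cores, are not shown. Axin2 is shown because it is the usual reporter, and Tcf7l2 because its internal start holds the single longer match, of the second form.
Lef1, upstream start, chr3:131110073-131110372, plus strand: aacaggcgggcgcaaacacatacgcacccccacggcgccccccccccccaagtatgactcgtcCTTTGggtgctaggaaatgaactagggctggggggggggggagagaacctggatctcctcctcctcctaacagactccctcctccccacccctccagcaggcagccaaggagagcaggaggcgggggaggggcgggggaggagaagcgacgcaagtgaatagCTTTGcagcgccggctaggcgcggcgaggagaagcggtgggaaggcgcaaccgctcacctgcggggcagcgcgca
Lef1, downstream start, chr3:131112541-131112840, plus strand: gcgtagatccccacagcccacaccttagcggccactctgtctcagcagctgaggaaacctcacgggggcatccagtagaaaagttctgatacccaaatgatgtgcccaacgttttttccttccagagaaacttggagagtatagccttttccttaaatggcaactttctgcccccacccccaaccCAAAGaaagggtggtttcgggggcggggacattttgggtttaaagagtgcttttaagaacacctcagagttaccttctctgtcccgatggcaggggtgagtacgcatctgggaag
Axin2, chr11:108920099-108920398, plus strand: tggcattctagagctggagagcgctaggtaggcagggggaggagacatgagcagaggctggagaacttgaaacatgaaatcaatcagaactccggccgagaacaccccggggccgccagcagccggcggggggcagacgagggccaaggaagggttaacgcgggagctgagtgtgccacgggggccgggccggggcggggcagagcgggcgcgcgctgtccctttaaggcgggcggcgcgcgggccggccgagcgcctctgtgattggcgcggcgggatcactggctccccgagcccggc
Tcf7l2, internal start, chr19:55895071-55895370, plus strand: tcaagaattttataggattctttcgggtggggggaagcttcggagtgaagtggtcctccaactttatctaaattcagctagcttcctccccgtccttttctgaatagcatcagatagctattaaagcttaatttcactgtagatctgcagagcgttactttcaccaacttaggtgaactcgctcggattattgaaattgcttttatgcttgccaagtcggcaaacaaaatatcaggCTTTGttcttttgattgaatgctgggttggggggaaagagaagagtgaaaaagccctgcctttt
The upstream Lef1 window held 2 cores and the downstream window 1, and the Axin2 window held 0. RefSeq places the upstream Lef1 start before the GENCODE start of ENSMUST00000029611, which lies past the end of this window. No listed transcript of Tcf7l2 begins within the window of the internal start. The nearest begin on either side of it, at 55894534 (ENSMUST00000142291) and 55895510 (ENSMUST00000111646), and were listed at 0 in all libraries. A match describes the letters of the window, and its absence says only that these letters were not in these 300 bases.

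Axin2, the scaffold that rebuilds the destruction complex, had the second largest estimate. Its total was at 5.54, 7.17 and 6.37 FPKM in Ctrl and 6.76, 8.30 and 18.01 in Gsk3sKO (chr11:108920349-108950783, plus strand). The highest Gsk3sKO value stood far above the rest, while the lowest lay between the Ctrl values. The difference was 0.60 ± 0.33 (log2, SE), with a 95% interval from −0.15 to 1.36 and an adjusted limma p of 0.792. It rested on Gsk3sKO replicate 3, without which it was 0.21 and did not pass, whereas without Gsk3sKO replicate 1 it was 0.86 and had an unadjusted limma p under 0.05.

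The excess in Gsk3sKO replicate 3 came from 1 transcript without a coding part. ENSMUST00000144130, a processed transcript of 1051 bases that begins 18525 bases past the start of the full-length transcript, was at 0.127, 0.599 and 0.151 FPKM in Ctrl and 0.214, 0 and 11.1 in Gsk3sKO. In that last library it made up 61.7% of the gene total, on about 350 reads, and it passed the filter only through Gsk3sKO. Its difference of 0.94 ± 1.01 did not pass (limma, adjusted p = 0.90). It overlaps the antisense gene Gm11670 (chr11:108939310-108942015, minus strand), which was listed at 0 in all libraries. Whether the authors' counting used the strand is not given in the sources used here, so reads of the pair cannot be told apart. Leaving out this transcript, the Axin2 difference was 0.22 and did not pass, a choice made after its values were seen.

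The full-length Axin2 transcript, ENSMUST00000052915 with 840 codons, was at 4.11, 5.52 and 5.16 FPKM in Ctrl and 5.09, 3.88 and 2.63 in Gsk3sKO. One Gsk3sKO library lay among the Ctrl values and the others below them, with a difference of −0.31 ± 0.31 (limma, adjusted p = 0.895) that was −0.49 without Gsk3sKO replicate 1 and −0.11 without Gsk3sKO replicate 3. Its share of the total was 77.4% ± 3.42 in Ctrl and 45.6% ± 30.4 in Gsk3sKO (SD, n = 3, exact permutation p = 0.2). The other way lay ENSMUST00000140821, a short coding transcript of 826 bases that begins 451 bases downstream of the full-length start, at 0.203, 0.538 and 0.989 FPKM in Ctrl and 1.198, 3.62 and 1.78 in Gsk3sKO. Every Gsk3sKO library lay above every Ctrl library, as for 4.28% of all transcripts tested, but it passed the filter only through Gsk3sKO and its difference of 0.98 ± 0.47 did not pass (limma, adjusted p = 0.842). With ENSMUST00000144511 and ENSMUST00000152909, which were at 0 in all Ctrl libraries, the short coding transcripts at the 5′ end summed to 0.203, 0.538 and 0.989 FPKM in Ctrl and 1.46, 4.41 and 4.28 in Gsk3sKO, a sum chosen after its values were seen and not tested. All protein-coding transcripts of Axin2 together were at 4.95, 6.53 and 6.15 FPKM in Ctrl and 6.54, 8.30 and 6.91 in Gsk3sKO. The highest Ctrl value and the lowest Gsk3sKO value were nearly equal, and the difference of 0.26 in a fit of all such totals did not pass.

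**Figure D2:**
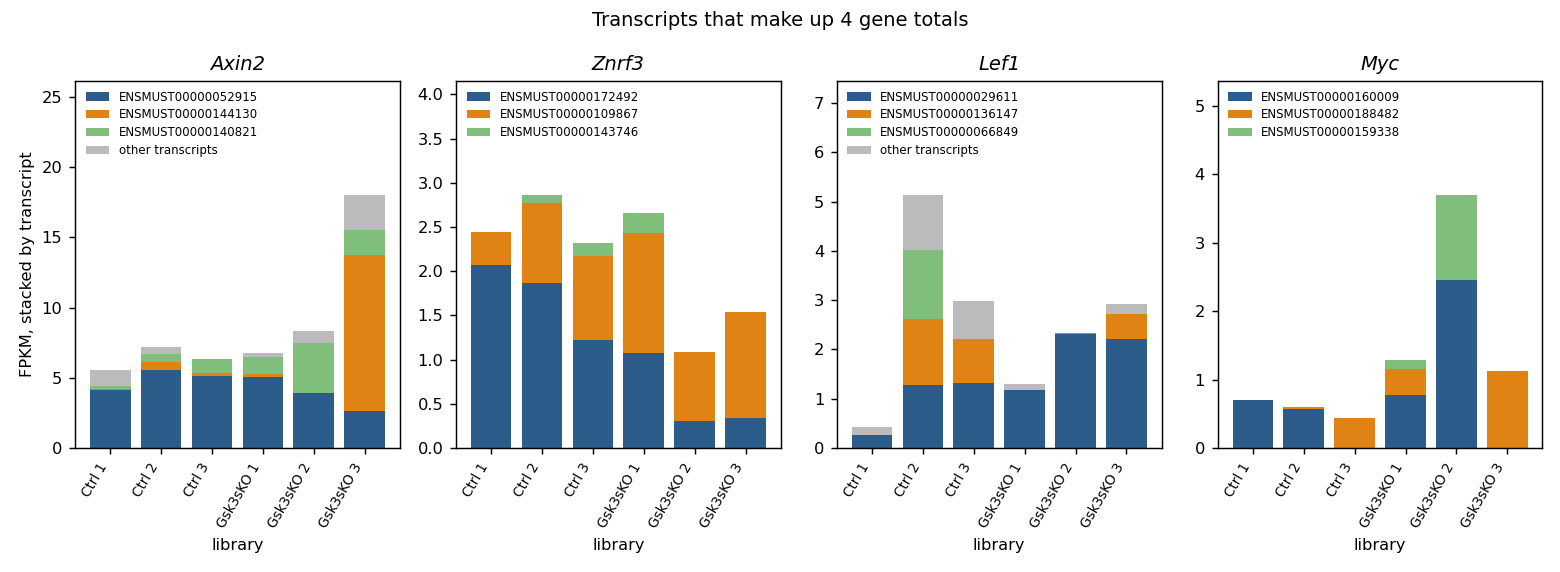
FPKM of the transcripts of Axin2, Znrf3, Lef1 and Myc, stacked to the gene total in each library (bars start at 0, and each panel has its own vertical axis). ENSMUST00000144130 fills most of the Axin2 bar of Gsk3sKO replicate 3, ENSMUST00000172492 is smaller in the Gsk3sKO bars of Znrf3, and ENSMUST00000029611 makes up most of the Gsk3sKO bars of Lef1.

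Znrf3 and Rnf43 encode membrane ubiquitin ligases that remove Frizzled receptors from the cell surface. The Znrf3 total was at 2.45, 2.86 and 2.32 FPKM in Ctrl and 2.66, 1.08 and 1.54 in Gsk3sKO (chr11:5276324-5444847, minus strand). Gsk3sKO replicate 1 lay among the Ctrl libraries and the other two below them. The difference was −0.40 ± 0.30, with a 95% interval from −1.09 to 0.29 and an adjusted limma p of 0.857. It was −0.62 without Gsk3sKO replicate 1 and −0.21 without Gsk3sKO replicate 2.

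A pair of long coding transcripts made up nearly all of Znrf3. ENSMUST00000172492, with 809 codons, was at 2.07, 1.87 and 1.22 FPKM in Ctrl and 1.08, 0.304 and 0.335 in Gsk3sKO. No Gsk3sKO library reached the Ctrl range, as for 6.96% of all transcripts tested, and the difference of −0.81 ± 0.42 did not pass (limma, adjusted p = 0.855). It passed the filter only through Ctrl, the group where it was high. Its share of the gene total was 84.5%, 65.2% and 52.8% in Ctrl and 40.7%, 28.0% and 21.7% in Gsk3sKO (67.5% ± 16.0 against 30.1% ± 9.68, SD, n = 3, exact permutation p = 0.1). These shares did not overlap either, as was the case with lower Gsk3sKO shares for 4.95% of all transcript shares. ENSMUST00000109867, which encodes 913 codons and begins 63107 bases upstream, was at 0.379, 0.904 and 0.945 FPKM in Ctrl and 1.35, 0.781 and 1.21 in Gsk3sKO, where the groups overlapped. Its mean was below the filter and it was not tested there.

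Rnf43 was at 0.120, 0.468 and 0.495 FPKM in Ctrl and 0.389, 0.303 and 0.506 in Gsk3sKO (chr11:87662722-87735539, plus strand). The groups overlapped at a level under the filter, and the difference without it was 0.05 and did not pass. Nkd1, an inhibitor that binds Dishevelled, was at 1.26, 2.13 and 2.002 FPKM in Ctrl and 2.20, 1.40 and 2.49 in Gsk3sKO (chr8:88521354-88594884, plus strand). All of it was carried by ENSMUST00000034086 with 471 codons. The groups overlapped, and the difference was 0.11 ± 0.30 (95% interval −0.57 to 0.79, limma, adjusted p = 0.956), which turned to −0.03 without Ctrl replicate 1.

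The D cyclins bind CDK4 and CDK6 and drive cells into S phase, and Ccnd2 is known to be the main D cyclin of adult neural progenitors. Ccnd2 was at 12.5, 14.8 and 15.6 FPKM in Ctrl and 13.6, 10.9 and 12.9 in Gsk3sKO (chr6:127125162-127152193, minus strand). The groups overlapped and the difference was −0.18 ± 0.17, with a 95% interval from −0.58 to 0.21 and an adjusted limma p of 0.875, which was the narrowest interval of the 7 genes. Leaving out single libraries moved it between −0.27 (without Ctrl replicate 1) and −0.10 (without Gsk3sKO replicate 2). Its main transcript, ENSMUST00000000188 with 289 codons, was at 12.2, 13.1 and 12.9 FPKM in Ctrl and 11.8, 7.87 and 10.7 in Gsk3sKO. All Gsk3sKO values of this transcript lay below the Ctrl values, an order found for 6.96% of all transcripts, and its difference of −0.32 ± 0.21 did not pass (limma, adjusted p = 0.882). Without Gsk3sKO replicate 2 it was −0.17. A shorter transcript, ENSMUST00000201637 with 156 codons, was at 0.0863, 0.772 and 2.69 FPKM in Ctrl and 1.18, 1.48 and 2.08 in Gsk3sKO, with a difference of 0.41 ± 0.55 (limma, adjusted p = 0.923) that was gone without Ctrl replicate 1. The antisense gene 9330179D12Rik overlaps the 5′ part of Ccnd2, and was at 0.670 to 1.55 FPKM in Ctrl and 0.128 to 1.89 in Gsk3sKO.

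Ccnd1 was at 6.07, 7.65 and 7.11 FPKM in Ctrl and 7.55, 7.04 and 4.86 in Gsk3sKO (chr7:144929931-144939925, minus strand). Only Gsk3sKO replicate 3 lay outside the Ctrl range. The difference was −0.10 ± 0.22, with a 95% interval from −0.61 to 0.41 and an adjusted limma p of 0.948. It was 0.07 without that library, −0.18 without Ctrl replicate 1, and between −0.21 and 0.07 over all 6 single omissions. ENSMUST00000093962, which encodes all 295 codons, made up 98.2% to 99.9% of the total and differed by −0.11 (limma, adjusted p = 0.964). Without Ctrl replicate 1 its difference was −0.19.

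Myc, the transcription factor of cell growth, had the largest estimate of the 7. It was at 0.705, 0.599 and 0.434 FPKM in Ctrl and 1.28, 3.70 and 1.13 in Gsk3sKO (chr15:61985391-61990374, plus strand). Every Gsk3sKO library lay above every Ctrl library, as for 3.71% of all gene totals tested, whereas the opposite order without overlap was found for 8.3% of them and for 0 of the 7 genes. The difference was 0.85 ± 0.38 (95% interval −0.03 to 1.73, unadjusted limma p = 0.0576, adjusted p = 0.767, exact permutation p = 0.1), and the means stood at a ratio of 3.51. Myc passed the filter only through the Gsk3sKO libraries, since its Ctrl mean was below 1 FPKM, so a higher Gsk3sKO level was a condition of its being tested. Gsk3sKO replicate 2 held the highest value, and without it the difference was 0.48 and did not pass, while without Gsk3sKO replicate 3 it was 1.05 and had an unadjusted limma p under 0.05.

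The 3 Myc transcripts above 0 differed from library to library. ENSMUST00000160009 with 439 codons, which begins 2031 bases downstream of ENSMUST00000022971, was at 0.705, 0.573 and 0 FPKM in Ctrl and 0.767, 2.45 and 0 in Gsk3sKO, whereas ENSMUST00000188482 carried the whole total in the libraries where the former was at 0. The short ENSMUST00000159338, with 32 codons, was at 0.125 and 1.25 FPKM in Gsk3sKO replicates 1 and 2, on about 2 and 14 reads, and at 0 elsewhere. ENSMUST00000160009 rested on about 56 and 33 reads in Ctrl replicates 1 and 2, and 56 and 120 in Gsk3sKO replicates 1 and 2. For ENSMUST00000188482 there were about 1.1 and 28 reads in Ctrl replicates 2 and 3, and 22 and 46 in Gsk3sKO replicates 1 and 3. ENSMUST00000022971 was listed at 0 in all libraries.

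**Figure D3:**
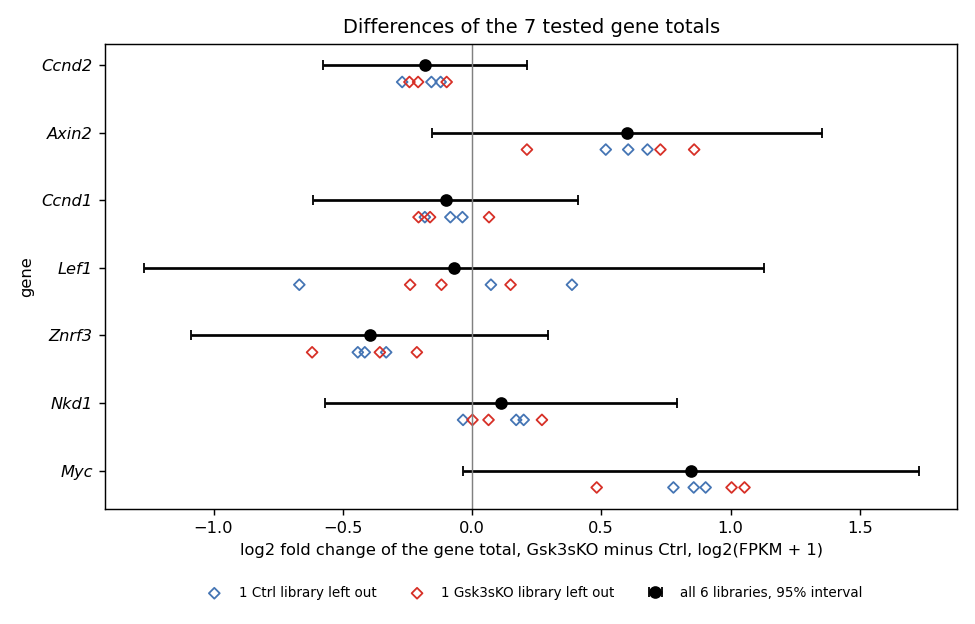
Log2 fold changes of the 7 tested gene totals, Gsk3sKO minus Ctrl on log2(FPKM + 1), with the limma estimate of all 6 libraries and its 95% interval (black) and the estimate after leaving out each library in turn (diamonds, blue for a Ctrl and red for a Gsk3sKO library). All 7 intervals reach across 0, the diamonds of Lef1 lie from −0.67 to 0.39, and the lowest diamond of Axin2, at 0.21, leaves out Gsk3sKO replicate 3.

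Genes around the members were read from 4 lists. Of 17 tested partners of β-catenin in the nucleus, 1 was lower at an unadjusted p under 0.05 and 0 were higher, with a median of −0.07. Ctnnb1, which encodes β-catenin, was at 64.2, 80.3 and 103 FPKM in Ctrl and 74.1, 84.9 and 66.8 in Gsk3sKO, with overlapping groups and a difference of −0.11 (limma, adjusted p = 0.935). Aes, a short member of the Groucho family and the most abundant of the list, differed by −0.07 (limma, adjusted p = 0.953). The gene that passed was Hbp1, a repressor with an HMG box that can inhibit TCF factors. It was at 3.74, 2.87 and 4.72 FPKM in Ctrl and 1.86, 0.742 and 1.301 in Gsk3sKO. The Gsk3sKO values lay below those of Ctrl, as for 8.3% of all gene totals, and Hbp1 fell by 1.06 ± 0.30 on the log2 scale (unadjusted limma p = 0.00766, adjusted p = 0.607, exact permutation p = 0.1). Tcf7, the remaining TCF/LEF gene, had a mean below the filter, at 1.09 ± 0.324 FPKM in Ctrl and 0.667 ± 0.413 in Gsk3sKO (SD, n = 3).

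Of 28 other feedback regulators and Wnt targets, 14 were tested, 1 was lower and 0 were higher, with a median of −0.02, and Ascl2 and Dkk1 were at 0 in all libraries. Neurod1, a neuronal transcription factor known as a target in adult hippocampal progenitors, was at 10.6, 7.96 and 7.38 FPKM in Ctrl and 5.37, 5.29 and 4.43 in Gsk3sKO. The same order without overlap, found for 8.3% of all gene totals, held here, and Neurod1 fell by 0.67 ± 0.21 on the log2 scale (unadjusted limma p = 0.0134, adjusted p = 0.688, exact permutation p = 0.1). The most abundant genes of the list were Dkk3 and Id2, with differences of 0.04 and −0.03 (limma, adjusted p = 0.956 and 0.980). Among 10 tested Wnt receptors and R-spondins 0 passed in either direction, with a median of −0.09, and the most abundant were Fzd3 (−0.11) and Rspo2 (0.09), which binds LGR receptors and holds ZNRF3 and RNF43 off the Frizzled receptors.

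Of 13 tested relatives and partners of the D cyclins and Myc, 1 was lower and 0 were higher. Below 0 lay 12 of the estimates, beside 58.9% of all gene totals, and the median was −0.20, beside −0.06 over all gene totals. Their summed level was 124, 112 and 104 FPKM in Ctrl and 98.4, 91.6 and 89.6 in Gsk3sKO, without overlap, while the sums of the other lists overlapped. Among single gene totals 8.3% had this order, and the order of the sum was not tested. Max, the obligate partner of Myc, was at 16.8, 20.9 and 14.6 FPKM in Ctrl and 13.1, 6.83 and 11.5 in Gsk3sKO. All Gsk3sKO values of Max lay below those of Ctrl, again an order of 8.3% of all gene totals, and it fell by 0.71 ± 0.25 on the log2 scale (unadjusted limma p = 0.0223, adjusted p = 0.692, exact permutation p = 0.1). Mga, which also pairs with Max and was the most abundant of the list, differed by −0.05 (limma, adjusted p = 0.986). Over the 4 lists 3 of 54 tested genes passed, or 5.56%, beside 6.56% of all gene totals. All 3 were lower, as were 669 of the 844 gene totals that passed overall.

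**Figure D4:**
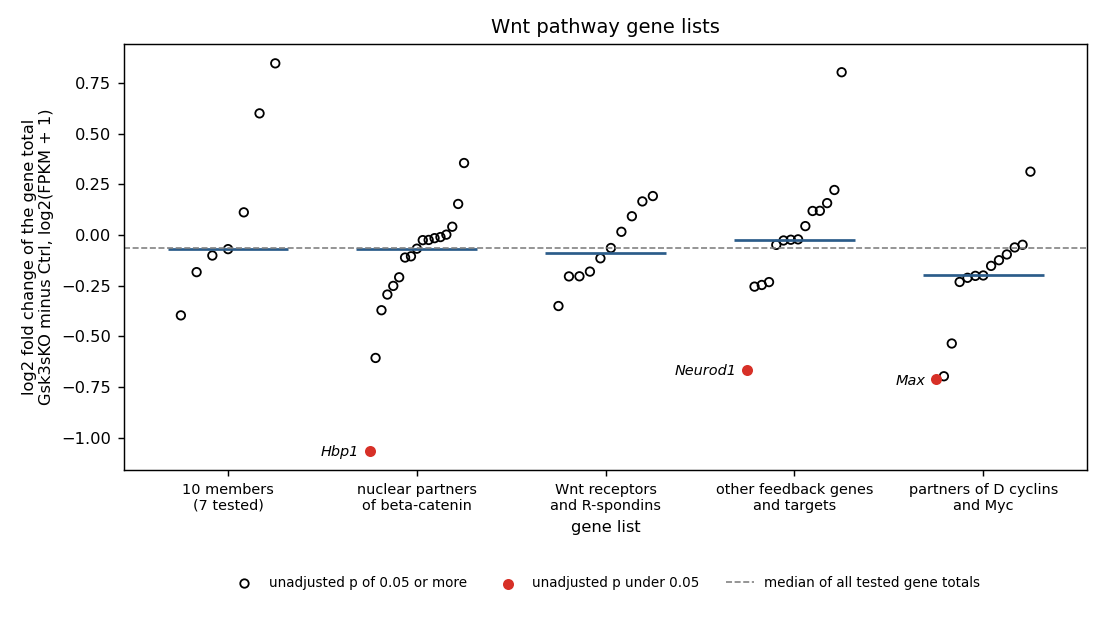
Log2 fold changes of gene totals, Gsk3sKO minus Ctrl on log2(FPKM + 1), for the tested members and 4 lists of related genes, with 1 point per gene (red, unadjusted limma p under 0.05), a blue bar at the list median and a dashed line at the median of all tested gene totals. Hbp1, Neurod1 and Max are the red points, all below 0, and the list of partners of D cyclins and Myc has the lowest bar at −0.20.

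Across the 6 libraries, the gene totals most like the most abundant member, Ccnd2, were ENSMUSG00000109108, Yeats2 and Dusp12, with Pearson r of 0.997, 0.995 and 0.993 on log2(FPKM + 1), and 49 tested genes had an r above 0.95. These values describe 6 points that share the group difference and the depth of their libraries.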

How the data were processed

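Ribosome-associated RNA of 6 libraries was analysed, grouped as Ctrl and Gsk3sKO by the titles in the labels. The authors deposited FPKM for each transcript and library, made with HISAT2 2.1.0, SAMtools 1.9 and StringTie 1.3.4d on GRCm38 per the submitters' processing notes, and the settings of these tools were not given in the sources used here. An FPKM is scaled by mapped fragments and transcript length. The deposited fold, p-value and q-value of each transcript are the authors' own comparison and were not used. Every library column had a sample (0 without one). Of 115220 transcripts, 114237 were found in GENCODE M21 and 983 were not.

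FPKM were summed by gene. Gene totals and transcripts with a mean of at least 1 FPKM were compared on log2(FPKM + 1) with limma 3.58.1 in R 4.3.3 (lmFit, eBayes with a trend), two-sided, over all features at once, with Benjamini-Hochberg adjustment. A call is an unadjusted p under 0.05. Single values were compared with two-sided exact permutation tests, which cannot go below 0.1 with 3 against 3 libraries. The model was tested on simulated data. Other steps ran in Python 3.11.15 (pandas 2.3.3, numpy 2.4.6, scipy 1.17.1, matplotlib 3.10.9). Depth was estimated from the steps between low values of long transcripts (over 800 bases), of which 7.4% to 18.1% lay within 0.01 reads of a whole number, so counts were not recovered.

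Named are all 10 members, their transcripts with a mean of at least 1 FPKM, Gsk3b, Drd2, genes of the 4 lists that passed or were among the 2 most abundant, and the 3 genes most like Ccnd2; other transcripts, Tcf7, overlapping antisense genes and the cell type markers that passed were chosen after their values were seen. The members and lists were chosen with earlier results of these data known. Alternatives were other pseudocounts, filters, a rescaling, no trend, a replicate block and each library left out; sums over protein-coding transcripts and without 1 Axin2 transcript were added after seeing the data.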

Additional observations from a re-analysis of the deposited data

How the results depend on the processing

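The members that could be tested gave 0 calls among gene totals and 0 among transcripts with pseudocounts of 0.1 and 0.5, without a filter or with a mean of at least 5 FPKM, after rescaling, and with the replicate number as a block. With a mean of at least 5 FPKM, only the totals of Ccnd2, Axin2 and Ccnd1 and the main transcripts of Ccnd2 and Ccnd1 could be tested. Without a trend in eBayes there was 1 gene total (Myc) and there were 2 transcripts (Znrf3 ENSMUST00000172492 and Axin2 ENSMUST00000140821). Leaving out 1 library at a time gave 0 to 1 gene totals (Axin2 without Gsk3sKO replicate 1, Myc without Gsk3sKO replicate 3) and 0 to 1 transcripts (Znrf3 ENSMUST00000172492, −1.03 without Gsk3sKO replicate 1). Over all features, the transcripts called were 1917 without a filter and 590 with a mean of at least 5 FPKM, where other numbers of transcripts were tested.

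Of the members' values under the alternatives, 194 kept direction and side of the threshold, 6 came past it and 11 turned direction. The Lef1 total was 0.096 with a pseudocount of 0.1 and 0.25 over protein-coding transcripts only. With each library left out in turn, the values that turned ranged from −0.67 to 0.39 for Lef1, −0.21 to 0.066 for Ccnd1 and −0.22 to 0.060 for its transcript ENSMUST00000093962 (above 0 without Gsk3sKO replicate 3), and −0.035 to 0.27 for Nkd1 and likewise −0.035 to 0.27 for its transcript ENSMUST00000034086 (below 0 without Ctrl replicate 1). They ranged from −0.21 to 1.59 for Axin2 ENSMUST00000144130 (below 0 without Gsk3sKO replicate 3) and from −0.00095 to 0.88 for Ccnd2 ENSMUST00000201637 (below 0 without Ctrl replicate 1). The cause was not tested.

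The labels do not say whether libraries with equal replicate numbers were handled together. Deviations from the group means correlated at −0.027, −0.011 and −0.081 for equal numbers and at −0.025 to 0.053 for different numbers. Such values show no shared deviation, but cannot tell whether the libraries were paired. With the replicate block, 821 of all gene totals and 1103 of all transcripts were called, beside 844 and 1200 without it, and no call of a member changed. After rescaling, the median over all gene totals was −0.004 in place of −0.06. Tcf7l1, Tcf7l2 and Rnf43 lay under the filter, and their values rest on the fit without it.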
